A study of Homo sapiens with 6 samples.

Results

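The proteasome genes of TC32 Ewing sarcoma cells, 49 of the 26931 gene symbols in the files, encode the subunits of the 20S core and 19S cap, their activators, an inhibitor and assembly chaperones. They were taken by name, as every symbol that begins with PSMA to PSMG and a number, together with POMP. That pattern took 55 symbols, of which 6 are not proteasome genes (5 antisense RNAs and PSMC3IP) and are given apart. TC32 is an established cell line from a Ewing sarcoma, a tumour of bone and soft tissue that usually carries a fusion of EWSR1 with FLI1. Cells were transfected with siEWSR1, an siRNA against EWSR1, with siFLI1, an siRNA against FLI1, or with the control siNeg, and RNA was taken 48 h later. Each of the 3 groups had 2 libraries, and all came from the same line grown in RPMI-1640 with serum. The labels do not give the site each siRNA binds, and normal and fusion transcripts share the FPKM of EWSR1 and FLI1.

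The proteasome is the protease that degrades proteins tagged with ubiquitin. Its 20S core is a barrel of outer alpha rings and inner beta rings, and its catalytic beta subunits PSMB5, PSMB6 and PSMB7 cut the substrate inside. The 19S cap recognises ubiquitin, removes it, unfolds the substrate with a ring of ATPases and feeds it to the core. Interferon and NF-kappaB signalling can switch on the alternative catalytic subunits PSMB8, PSMB9 and PSMB10, which form the immunoproteasome and favour peptides for display on MHC class I. When proteasome activity is low, the transcription factor NFE2L1 raises the genes of most subunits together.

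The deposited unit was FPKM, fragments scaled to transcript length and library size, so that levels of different genes can be set side by side. The libraries had 12079 to 12741 genes at 1 FPKM or more and an implied depth, from the deposited intervals, of 15159073 to 16298374 fragments. EWSR1 stood at 34.6 and 32.3 FPKM in the siEWSR1 libraries, 51.2 and 50.2 in the siFLI1 libraries and 46.5 and 47.2 in the siNeg libraries. FLI1 stood at 10.4 and 10.6 FPKM with siEWSR1, 8.98 and 8.56 with siFLI1, and 10.9 and 10.9 with siNeg. Of 9 Ewing sarcoma markers, 8 were at 1 FPKM or more in at least 2 libraries, of which 8 were lower with siEWSR1 and 6 with siFLI1. That is 100% and 75%, beside 31.0% and 29.6% of all genes tested. Under quantile normalization, another scaling described below, 6 were lower with siEWSR1. Summed, the 9 stood at 636.9 and 522.3 FPKM with siEWSR1, 615.0 and 569.9 with siFLI1, and 1029 and 1048 with siNeg. Blood markers summed to at most 0.652 FPKM in a library, with 3 of 7 at 0 throughout. Epithelial markers summed to 28.1 and 26.2 FPKM with siEWSR1, 30.6 and 30.2 with siFLI1, and 24.4 and 23.1 with siNeg. Most of that sum was 1 gene, at 20.65 of a mean of 23.79 FPKM with siNeg. Of the 3 tested, 2 (CLDN4 and KRT18) were higher with both siRNAs, or 66.7%, beside 33.2% and 35.7% of all genes tested. The other, ESRP1, was lower, at a log2 change of -1.97 with each siRNA. The 6 endothelial markers were each below 1 FPKM everywhere, and summed to 1.24 and 1.08 with siEWSR1, 1.24 and 1.17 with siFLI1, and 0.405 and 0.483 with siNeg. Fibroblast markers summed to 807.4 and 878.2 FPKM with siEWSR1, 959.4 and 1040 with siFLI1, and 172.9 and 171.4 with siNeg. Of the 7, 4 were tested and all 4 were higher with both siRNAs, beside 33.2% and 35.7% of all genes tested. COL3A1 and COL1A1 held most of the fibroblast sum. DCN, LUM and COL1A2 stayed below 1 FPKM but were also above siNeg in every siRNA library: DCN averaged 0.142 FPKM with siEWSR1, 0.428 with siFLI1 and 0.012 with siNeg, and LUM averaged 0.318 and 0.615 and was listed at 0 in both siNeg libraries. The part of these marker genes in the results below was not tested. In bulk RNA, fewer cells of a type and less RNA per cell cannot be told apart. Since no label states that replicates came from separate cultures, p-values reflect the spread among these libraries alone, and that spread may be technical.

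In FPKM as deposited, proteasome genes were more often lower than higher under siEWSR1. Limma was run on log2(FPKM + 0.5) for the 13043 genes that reached 1 FPKM in 2 or more of the 6 libraries, and a gene was called at an adjusted p under 0.05. Of 47 proteasome genes tested, 19 (40.4%) were lower with siEWSR1 than with siNeg, while 31.0% of all genes tested were lower. Only 4 (8.51%) were higher with siEWSR1, against 33.2% of all genes tested. The median log2 change of the 47 was -0.14, beside 0.01 over all genes. The changes were small: 3 of the 47 (PSMD14, PSMA3 and PSME1) differed by 1.5-fold or more.

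With siFLI1, 14 of the 47 (29.8%) were lower than with siNeg, beside 29.6% of all genes tested, so the share that fell was near the background. The share that rose was smaller than the background, with 7 genes (14.9%) higher beside 35.7% of all genes. The median was -0.09, beside 0.04 over all genes, and 1 gene (PSMB10) differed by 1.5-fold or more. Counted without a test, 30 of the 47 lay in both siEWSR1 libraries below both siNeg libraries, against 40.7% of all genes, and 7 lay above, against 42.6% of all genes. The same counts for siFLI1 were 30 below, against 39.1% of all genes, and 9 above, against 45.6%. Both comparisons use the same siNeg libraries.

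Summed over the 49 genes, the level was 2811 and 2691 FPKM in the siEWSR1 libraries, 2904 and 2951 in the siFLI1 libraries and 3219 and 3160 in the siNeg libraries, a difference of -13.7% for siEWSR1 and -8.21% for siFLI1. The sum was thus lowest with siEWSR1 and highest with siNeg, and no 2 groups overlapped. As a share of the FPKM of genes of at least 300 bases, it was 0.848% and 0.840% with siEWSR1, 0.856% and 0.858% with siFLI1, and 0.912% and 0.905% with siNeg, smaller relative differences of -7.1% and -5.66%. The siEWSR1 counts depended on how libraries were scaled. Scaled to the FPKM of genes of at least 300 bases, which moved the median of all genes to 0.11, 7 were higher and 13 lower. The median of the 47 minus that of all genes was then -0.138, beside -0.146 as deposited. That scaling thus moved the counts but hardly the gap. With quantile normalization, which gives every library the same distribution of values, 10 were higher and 12 lower, and the gap was 0.035. For siFLI1, median-ratio scaling gave 5 higher and 19 lower, with a gap of -0.134 beside -0.131 as deposited. The shares of all genes called under these scalings are not given here. Quantile normalization moved the median of the 47 to 0.02 for siEWSR1, beside -0.02 over all genes, and to -0.03 for siFLI1, beside -0.04 over all genes. Calls that stood under every alternative are named below where each gene is described: 12 of 23 for siEWSR1 and 15 of 21 for siFLI1.

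**Figure D1:**
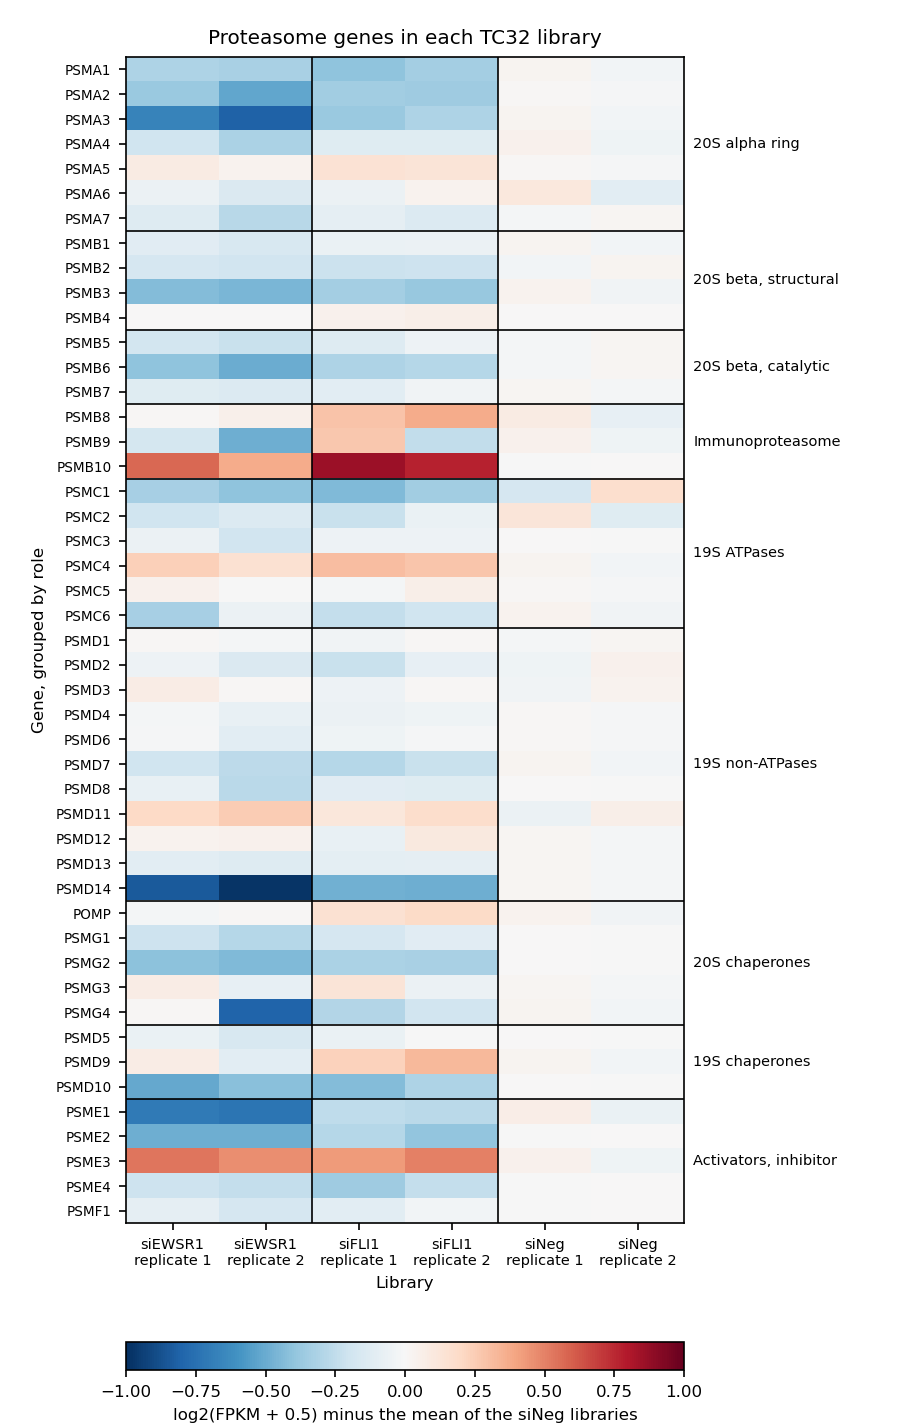
Each row is 1 of the 47 proteasome genes tested, grouped by role, and each column 1 of the 6 libraries; colour is log2(FPKM + 0.5) minus the mean of the siNeg libraries, blue for lower and red for higher. Averaged over the siEWSR1 libraries, PSMD14, PSMA3 and PSME1 are the deepest blue, while PSMG4 is deep blue in siEWSR1 replicate 2 only. PSMB10 and PSME3 are red with both siRNAs. Quantile normalization kept the direction of PSMD14, PSMA3, PSME1, PSMB10 and PSME3.

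**Figure D2:**
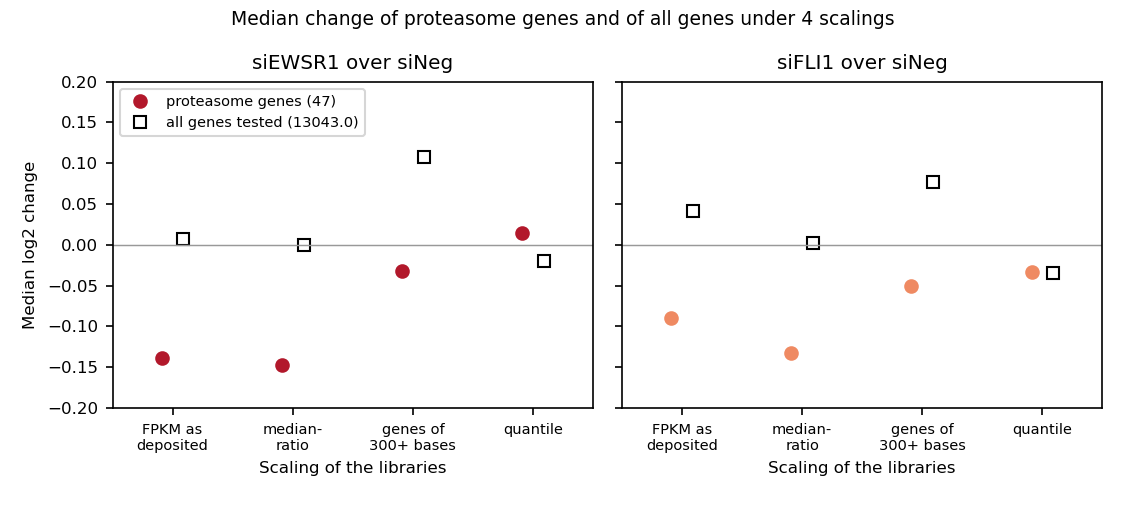
Median log2 change of the 47 proteasome genes tested (filled circles) and of all 13043 genes tested (open squares), for siEWSR1 (left) and siFLI1 (right) over siNeg, under 4 scalings of the libraries. The gap below all genes is -0.15 for siEWSR1 and -0.13 for siFLI1 with FPKM as deposited, and under quantile normalization it turns to 0.04 and 0.002.

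In FPKM as deposited, most genes of the constitutive 20S core were lower with siEWSR1. Of its 14 subunit genes, 10 (71.4%) were lower with siEWSR1, beside 31.0% of all genes tested, and 6 (42.9%) were lower and 1 higher with siFLI1, beside 29.6% lower and 35.7% higher. The siEWSR1 count was 6 with scaling to genes of at least 300 bases and without either siNeg replicate, and 4 (of 14) with quantile normalization, where PSMA5 and PSMB4 were called higher and the share of lower genes was below that of the chaperones (3 of 8) and the activators (3 of 5). PSMA2, PSMA3, PSMB3 and PSMB6 were lower with both siRNAs under every alternative. Summed, the 14 genes stood at 1615 and 1550 FPKM with siEWSR1, 1672 and 1695 with siFLI1 and 1886 and 1853 with siNeg.

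In the alpha ring, whose tails gate the entrance to the core, PSMA3 moved furthest with siEWSR1. It stood at 70.5 and 63.9 FPKM in the siEWSR1 libraries, 87.1 and 90.6 in the siFLI1 libraries and 114.5 and 110.6 in the siNeg libraries. The 3 groups did not overlap, with siEWSR1 lowest. Its log2 change was -0.74 ± 0.06 with siEWSR1 (SE, adjusted p = 0.000132) and -0.34 ± 0.06 with siFLI1 (adjusted p = 0.0035). PSMA3 lies on chromosome 14 from 58711523 to 58738727 (hg19) and overlaps PSMA3-AS1, which was higher with both siRNAs, and reads of the pair cannot be told apart if they were counted without strand. PSMA2 had 75.6 and 68.1 FPKM with siEWSR1, 76.7 and 76.2 with siFLI1, and 98.8 and 96.8 with siNeg. Its siRNA libraries all lay below both siNeg libraries, and its log2 change was -0.44 ± 0.06 with siEWSR1 and -0.35 ± 0.06 with siFLI1 (adjusted p = 0.00101 and 0.00265).

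PSMA1 had 133.4 and 131.9 FPKM with siEWSR1, 124.4 and 130.4 with siFLI1, and 167.9 and 162.1 with siNeg, and was the alpha gene that moved furthest with siFLI1. Its change of -0.37 ± 0.05 with siFLI1 was called under every alternative (adjusted p = 0.000865 as deposited), and that of -0.31 ± 0.05 with siEWSR1 was not called with quantile normalization (adjusted p = 0.149). PSMA4 and PSMA7 were lower with siEWSR1, at -0.26 and -0.21 (adjusted p = 0.00924 and 0.0281). For PSMA4, 2 alternatives did not keep the call, and for PSMA7, 8 did not and quantile normalization put it at 0.05, not called. With siFLI1 they were at -0.12 and -0.11, not called (adjusted p = 0.12 and 0.157), although PSMA4 was called lower under median-ratio scaling (adjusted p = 0.0358). Neither differed between siEWSR1 and siFLI1 beyond the threshold (adjusted p = 0.235 and 0.442). PSMA6 was called with neither siRNA. PSMA5 was the exception in direction: it had 29.6 and 28.6 FPKM with siEWSR1, 30.9 and 30.7 with siFLI1, and 28.2 and 27.7 with siNeg. Its log2 change with siFLI1 was 0.14 ± 0.05 (adjusted p = 0.048), a call that 8 alternatives did not keep.

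Among the structural beta subunits, PSMB3 had 108.0 and 106.6 FPKM with siEWSR1, 115.4 and 112.5 with siFLI1, and 149.9 and 142.7 with siNeg. All 4 siRNA libraries lay below both siNeg libraries. Its log2 change was -0.45 ± 0.05 with siEWSR1 and -0.36 ± 0.05 with siFLI1 (adjusted p = 0.000416 and 0.000982). PSMB2 had 25.9 and 25.5 FPKM with siEWSR1, 25.1 and 25.2 with siFLI1, and 28.5 and 29.8 with siNeg. Its changes of -0.18 and -0.21 were smaller, and 5 and 2 alternatives did not keep the calls. PSMB1 was lower with siEWSR1 at -0.14 ± 0.05 (adjusted p = 0.0442), a call 11 alternatives did not keep. PSMB4, the most abundant proteasome gene, had 261.7 and 261.6 FPKM with siEWSR1, 269.2 and 271.9 with siFLI1, and 261.4 and 261.4 with siNeg. It was called with neither siRNA as deposited, and as higher with siEWSR1 under quantile normalization (adjusted p = 0.0109).

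Both PSMA3 and PSMB3 carry CCAAT letters close to their start, and their promoters are shown as examples of 20S genes that were lower with both siRNAs. The sequences are RefSeq promoters of GRCh38.p14, from 250 bases before to 50 bases after the annotated start, read 5′ to 3′ on the gene's strand. Capitals mark matches, on either strand, to CCAAT, bound by NF-Y, or to TGANNNNGC, the antioxidant response element bound by NFE2L1 with small MAF proteins. They also mark matches to CCGGAAG, an exact form of the site bound by ETS-family factors, the family of FLI1. In PSMA3 (chr14:58244593-58244892, plus strand) the matches to CCAAT begin at positions -35 and -18 from the start, and the second overlaps the TGANNNNGC match at -14. In PSMB3 (chr17:38752491-38752790, plus strand) they begin at -55 and -13, with TGANNNNGC at -104. CCAAT also lies close to the start in proteasome genes that were not lower. It begins at -10 in PSMC5, called with neither siRNA as deposited, and at -12 in PSME3, higher with both.
PSMA3: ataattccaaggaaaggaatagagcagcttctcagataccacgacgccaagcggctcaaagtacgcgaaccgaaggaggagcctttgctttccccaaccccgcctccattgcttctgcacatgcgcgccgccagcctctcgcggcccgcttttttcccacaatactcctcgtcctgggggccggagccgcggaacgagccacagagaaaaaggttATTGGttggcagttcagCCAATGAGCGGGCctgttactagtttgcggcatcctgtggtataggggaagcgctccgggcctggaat
PSMB3: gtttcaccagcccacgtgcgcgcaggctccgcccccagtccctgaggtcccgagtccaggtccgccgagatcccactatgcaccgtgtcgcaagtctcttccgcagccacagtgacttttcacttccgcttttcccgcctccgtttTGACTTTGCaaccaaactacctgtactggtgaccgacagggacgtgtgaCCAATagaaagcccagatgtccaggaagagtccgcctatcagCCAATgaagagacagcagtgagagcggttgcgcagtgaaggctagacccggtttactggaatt

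The 19S cap changed at 1 gene more than at any other. Of its 17 genes, 3 (PSMD14, PSMD7 and PSMC1) were lower with siEWSR1 and the same 3 with siFLI1, 2 (PSMC4 and PSMD11) were higher with siEWSR1, and 1 (PSMC4) was higher with siFLI1. The lower genes were thus 17.6% with each siRNA, beside 31.0% and 29.6% of all genes tested, and the higher genes 11.8% and 5.88%, beside 33.2% and 35.7%. Under quantile normalization 6 were higher with siEWSR1 and 2 were lower, and under median-ratio scaling 5 were lower with each siRNA. Summed, the 17 stood at 808.9 and 769.6 FPKM with siEWSR1, 796.8 and 817.9 with siFLI1, and 862.9 and 856.1 with siNeg.

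PSMD14 encodes the metalloprotease of the lid that cuts ubiquitin chains off the substrate. It had 44.3 and 40.2 FPKM in the siEWSR1 libraries, 56.9 and 56.7 in the siFLI1 libraries, and 80.7 and 78.6 in the siNeg libraries. The groups did not overlap, and siEWSR1 was lowest. Its log2 change was -0.91 ± 0.06 with siEWSR1 (adjusted p = 5.34e-05), or 1.88-fold lower, and -0.48 ± 0.06 with siFLI1 (adjusted p = 0.000604), or 1.40-fold lower. These were the lowest values of the 47 genes in either comparison, and both calls stood under every alternative. PSMD14 lies on chromosome 2 from 162164786 to 162268228 (hg19) and overlaps no other gene of the files.

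PSMD7, the lid subunit that pairs with PSMD14, had 60.5 and 58.1 FPKM with siEWSR1, 57.0 and 59.6 with siFLI1, and 71.0 and 68.4 with siNeg. All siRNA libraries lay below both siNeg libraries. It changed by -0.23 ± 0.05 with siEWSR1 (adjusted p = 0.00879), not called with quantile normalization or without siNeg replicate 1, and -0.26 ± 0.05 with siFLI1 (adjusted p = 0.00572), called under every alternative. PSMD11, a lid subunit that stabilises the joined particle, had 25.6 and 26.6 FPKM with siEWSR1, 24.1 and 25.1 with siFLI1, and 21.4 and 23.1 with siNeg. Its change of 0.23 ± 0.06 with siEWSR1 (adjusted p = 0.0167) was not called without siEWSR1 replicate 2 or without siNeg replicate 1 (adjusted p = 0.0603 to 0.111). The other 8 non-ATPase genes were called with neither siRNA as deposited, and they included the scaffolds PSMD1 and PSMD2 and the ubiquitin receptor PSMD4. After quantile normalization PSMD1 and PSMD4 were called higher with siEWSR1, at 0.14 and 0.14, against -0.01 and -0.04 as deposited.

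The promoters of PSMD14 and PSMD7, a pair of lid genes that were lower with both siRNAs, each hold CCGGAAG next to the start. It begins at position -4 in PSMD14 (chr2:161308175-161308474, plus strand) and at -2 in PSMD7 (chr16:74296564-74296863, plus strand). It also lies close to the start in cap genes called with neither siRNA, at -8 in PSMD12 and -12 in PSMD13. PSMD14 also has TGANNNNGC at -146 and a palindrome read as CCAAT on both strands, at -48 and -45, and PSMD7 has CCAAT at -198.
PSMD14: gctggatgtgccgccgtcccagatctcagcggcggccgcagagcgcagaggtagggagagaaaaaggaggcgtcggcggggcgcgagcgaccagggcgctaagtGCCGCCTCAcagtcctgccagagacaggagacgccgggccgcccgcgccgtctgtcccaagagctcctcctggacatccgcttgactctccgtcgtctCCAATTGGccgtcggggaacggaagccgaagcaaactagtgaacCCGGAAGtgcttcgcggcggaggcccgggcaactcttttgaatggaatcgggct
PSMD7: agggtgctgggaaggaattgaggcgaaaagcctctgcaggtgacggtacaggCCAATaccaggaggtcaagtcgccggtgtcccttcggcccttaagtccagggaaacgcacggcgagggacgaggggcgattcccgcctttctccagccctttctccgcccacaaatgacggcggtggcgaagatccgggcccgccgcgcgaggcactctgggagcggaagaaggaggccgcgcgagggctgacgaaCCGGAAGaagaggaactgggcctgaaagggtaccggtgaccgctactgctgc

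Among the 6 ATPases that unfold the substrate, PSMC4 was higher with both siRNAs. It had 38.8 and 36.6 FPKM with siEWSR1, 40.6 and 39.7 with siFLI1, and 33.4 and 32.1 with siNeg. All 4 siRNA libraries lay above both siNeg libraries. It changed by 0.20 ± 0.06 with siEWSR1 (adjusted p = 0.0191), not called without siEWSR1 replicate 1 or without either siNeg replicate, and 0.29 ± 0.06 with siFLI1 (adjusted p = 0.00384), called under every alternative. PSMC1 had 3.90 and 3.68 FPKM with siEWSR1, 3.59 and 3.84 with siFLI1, and 4.42 and 5.72 with siNeg, the lowest level of the 47. Its changes of -0.37 ± 0.12 and -0.40 ± 0.12 (adjusted p = 0.0315 and 0.0242) were not kept by 8 and 4 alternatives. RefSeq lists 13 pseudogenes named for PSMC1, and the counting of reads that map to several places is not stated, so its level is uncertain. PSMC2, PSMC3, PSMC5 and PSMC6 were called with neither siRNA as deposited.

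Assembly chaperones split by gene with siFLI1, while the log2 changes of all 8 were below 0 with siEWSR1. Of the 8, 3 (PSMG1, PSMG2 and PSMD10) were lower with siEWSR1, while 2 (PSMG2 and PSMD10) were lower and 2 (POMP and PSMD9) higher with siFLI1. The shares lower, 37.5% and 25%, were near those of all genes tested (31.0% and 29.6%). The shares higher, 0% and 25%, were below those of all genes tested (33.2% and 35.7%). PSMG2, which with PSMG1 forms the chaperone that starts the alpha ring, had 28.9 and 28.3 FPKM with siEWSR1, 30.8 and 30.7 with siFLI1, and 38.6 and 38.5 with siNeg. The 3 groups did not overlap. Its log2 change was -0.42 ± 0.05 with siEWSR1 and -0.32 ± 0.05 with siFLI1 (adjusted p = 0.000413 and 0.0013), and both calls stood under every alternative, although the gene overlaps CEP76. PSMG1 had 23.9 and 22.7 FPKM with siEWSR1, 24.6 and 25.6 with siFLI1, and 27.8 and 27.5 with siNeg, and its change was -0.25 ± 0.05 with siEWSR1 (adjusted p = 0.00747, called under every alternative) and -0.14 ± 0.05, not called, with siFLI1 (adjusted p = 0.0605).

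PSMD10, also known as gankyrin, a chaperone of the ATPase ring, had 37.3 and 39.9 FPKM with siEWSR1, 39.4 and 43.0 with siFLI1, and 53.4 and 53.4 with siNeg. All siRNA libraries lay below both siNeg libraries, at a log2 change of -0.46 ± 0.06 and -0.37 ± 0.06 (adjusted p = 0.000971 and 0.00246), both called under every alternative. POMP, the chaperone that completes the core, had 24.6 and 25.2 FPKM with siEWSR1, 27.7 and 28.5 with siFLI1, and 25.6 and 24.3 with siNeg. It was higher with siFLI1 at 0.17 ± 0.05 (adjusted p = 0.0303), a call that 6 alternatives did not keep. PSMD9, another chaperone of the ATPases, had 19.9 and 17.4 FPKM with siEWSR1, 22.2 and 23.6 with siFLI1, and 19.2 and 18.4 with siNeg. Its change with siFLI1 was 0.28 ± 0.08 (adjusted p = 0.0179), not kept without siFLI1 replicate 2 or without either siNeg replicate. With siEWSR1, PSMG4 rested on 1 library: it had 11.5 and 6.36 FPKM with siEWSR1, 9.24 and 9.96 with siFLI1, and 11.6 and 11.2 with siNeg. It was not called with siEWSR1 (-0.39 ± 0.24, adjusted p = 0.185), where its replicates lay far apart. Both siFLI1 libraries lay below both siNeg libraries. PSMG4 was not called with siFLI1 as deposited, but was called lower in a fit of siFLI1 and siNeg alone.

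The activators moved apart from each other. PSME1 and PSME2 encode the alpha and beta chains of the 11S cap, which interferon induces and which opens the core without ubiquitin, and both were lower with both siRNAs. PSME3, whose product forms the related nuclear cap, was higher with both. PSME1 had 75.8 and 74.7 FPKM with siEWSR1, 104.2 and 102.9 with siFLI1, and 129.9 and 119.0 with siNeg. The groups did not overlap, and its log2 change was -0.72 ± 0.06 with siEWSR1 (adjusted p = 0.000101, called under every alternative) and -0.26 ± 0.06 with siFLI1 (adjusted p = 0.00697, and 0.0612 with quantile normalization). PSME1 overlaps EMC9. PSME2 had 20.7 and 20.7 FPKM with siEWSR1, 23.9 and 22.1 with siFLI1, and 29.1 and 29.4 with siNeg, with changes of -0.49 ± 0.06 and -0.34 ± 0.06 (adjusted p = 0.000504 and 0.00235) that stood under every alternative. RefSeq lists 6 pseudogenes named for PSME2, 4 for PSMD7 and 3 each for PSMA2 and PSMD10, so the doubt about reads that map to several places, given above for PSMC1, holds for their levels too.

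PSME3 had 33.0 and 31.5 FPKM with siEWSR1, 30.6 and 32.3 with siFLI1, and 23.3 and 22.1 with siNeg. Its siRNA libraries all lay above both siNeg libraries and did not separate from each other. The log2 change was 0.50 ± 0.06 with siEWSR1 and 0.46 ± 0.06 with siFLI1 (adjusted p = 0.000533 and 0.000676), and both calls stood under every alternative. PSME4, an activator of the nucleus, had 11.4 and 11.2 FPKM with siEWSR1, 10.2 and 11.2 with siFLI1, and 13.2 and 13.3 with siNeg. It was lower at -0.22 ± 0.06 with siEWSR1 (adjusted p = 0.0201), which 4 alternatives did not keep, and at -0.30 ± 0.06 with siFLI1 (adjusted p = 0.00626, called under every alternative). PSMF1, the inhibitor known as PI31, was called with neither siRNA, at -0.13 and -0.07.

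**Figure D3:**
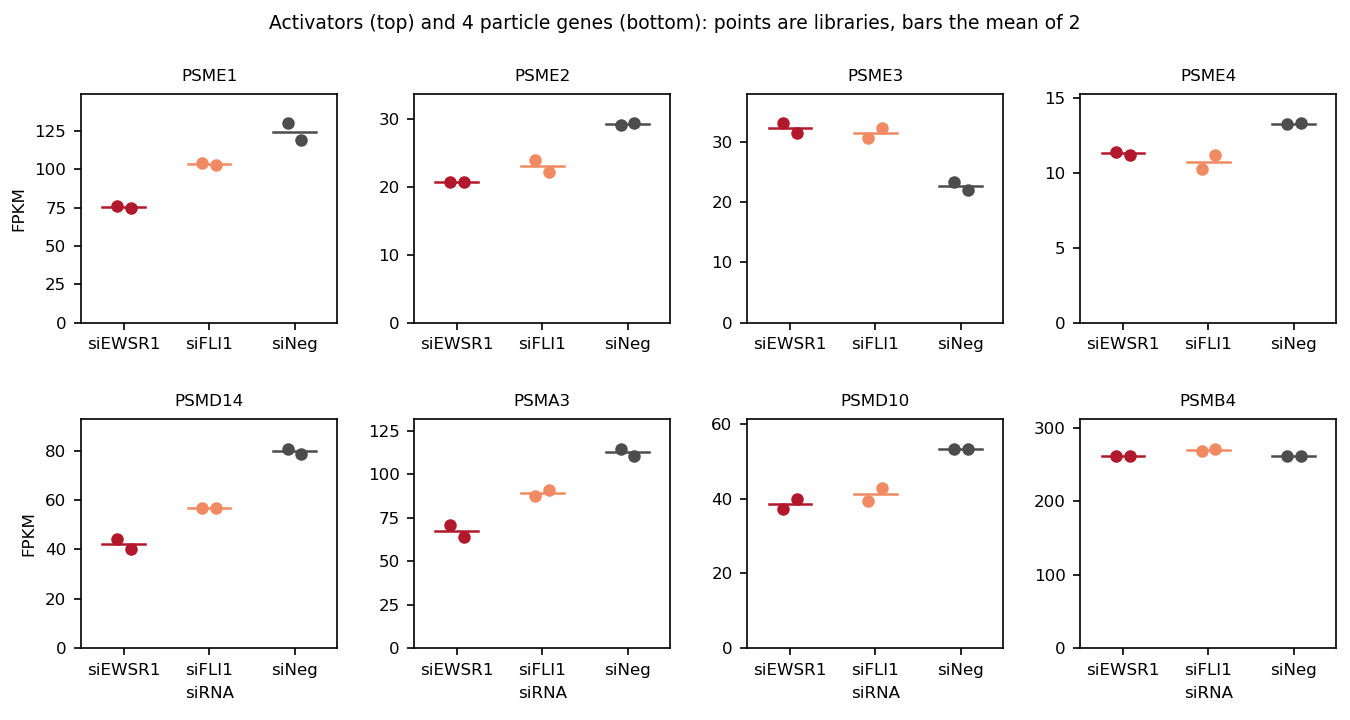
FPKM of 4 activator genes (top row) and of PSMD14, PSMA3, PSMD10 and PSMB4 (bottom row) in siEWSR1, siFLI1 and siNeg libraries; points are libraries, bars the mean of 2, and each axis starts at 0. PSME1, PSMD14 and PSMA3 are lowest with siEWSR1, next with siFLI1 and highest with siNeg, while PSME3 is higher with both siRNAs, in these directions under every scaling tried.

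Among the immunoproteasome subunits, PSMB10 was higher with both siRNAs and PSMB8 with siFLI1. Of PSMB8, PSMB9 and PSMB10, 1 (PSMB10) was higher with siEWSR1, 2 (PSMB8 and PSMB10) were higher with siFLI1, and 0 were lower (limma, also 0 at an unadjusted p under 0.05), whereas of the other 44 proteasome genes tested 3 were higher and 19 (43.2%) lower with siEWSR1 and 5 were higher and 14 (31.8%) lower with siFLI1. The difference between the 3 and the 44 was not tested. The shares of the 3 that were higher were 33.3% with siEWSR1 and 66.7% with siFLI1, beside 33.2% and 35.7% of all genes tested. With siEWSR1 the share was thus at the background. Of all genes tested, 31.0% and 29.6% were lower. Summed, the 3 stood at 46.2 and 44.2 FPKM with siEWSR1, 57.0 and 55.9 with siFLI1, and 43.8 and 40.4 with siNeg, a difference of 7.32% for siEWSR1 and 34.1% for siFLI1. Blood cells are rich in these subunits. The 7 blood markers summed to 0.652 and 0.547 FPKM with siEWSR1, 0.527 and 0.432 with siFLI1, and 0.361 and 0.241 with siNeg. The sum was thus higher in every siRNA library, and CD14 alone accounted for the rise. CD14 averaged 0.4709 of a mean sum of 0.5994 FPKM with siEWSR1, 0.3542 of 0.4793 with siFLI1, and 0.1665 of 0.301 with siNeg. By library CD14 had 0.505 and 0.437 FPKM with siEWSR1, 0.393 and 0.316 with siFLI1, and 0.160 and 0.173 with siNeg. The defining leukocyte marker PTPRC was at 0 in 5 libraries and at 0.012 FPKM in siFLI1 replicate 2. The part of the blood markers in the immunoproteasome values was not tested.

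PSMB10, which takes the place of PSMB7, had 13.3 and 11.5 FPKM with siEWSR1, 16.3 and 15.3 with siFLI1, and 8.74 and 8.79 with siNeg. The 3 groups did not overlap, with siFLI1 highest. Its log2 change was 0.47 ± 0.08 with siEWSR1 (adjusted p = 0.00257), a 1.39-fold rise, and 0.81 ± 0.08 with siFLI1 (adjusted p = 0.000226), a 1.76-fold rise, and both calls stood under every alternative. It lies on chromosome 16 from 67968407 to 67970780 (hg19). PSMB8, which replaces PSMB5, had 28.3 and 29.1 FPKM with siEWSR1, 34.2 and 36.3 with siFLI1, and 29.6 and 26.4 with siNeg. It was higher with siFLI1 at 0.33 ± 0.07 (adjusted p = 0.00649), under every alternative, and its siEWSR1 libraries lay between the siNeg libraries (0.03 ± 0.07, adjusted p = 0.689). PSMB8 overlaps PSMB8-AS1.

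PSMB9, which replaces PSMB6 and shares its promoter region with TAP1, had 4.62 and 3.62 FPKM with siEWSR1, 6.48 and 4.38 with siFLI1, and 5.45 and 5.12 with siNeg. Its siFLI1 replicates lay on either side of both siNeg libraries. It had the fewest fragments of the 47 genes, 113.0 to 190.4 as implied by the deposited intervals, whose half-width reached 18.8% of the value. The log2 change of -0.33 ± 0.18 with siEWSR1 (adjusted p = 0.15) and of 0.01 ± 0.18 with siFLI1 (adjusted p = 0.959) were not called. Both siEWSR1 libraries lay below both siNeg libraries, and the 95% intervals before adjustment were wide, at -0.77 to 0.10 with siEWSR1 and -0.42 to 0.45 with siFLI1.

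Of the constitutive partners, PSMB6 was lower with both siRNAs and PSMB5 with siEWSR1. PSMB6, the caspase-like subunit, had 118.0 and 110.6 FPKM with siEWSR1, 125.7 and 128.2 with siFLI1, and 153.9 and 158.1 with siNeg. The groups did not overlap, at a log2 change of -0.45 ± 0.05 with siEWSR1 and -0.30 ± 0.05 with siFLI1 (adjusted p = 0.000527 and 0.00304). PSMB5, the chymotrypsin-like subunit that proteasome inhibitor drugs bind, had 103.5 and 101.0 FPKM with siEWSR1, 107.7 and 113.8 with siFLI1, and 116.2 and 119.6 with siNeg. It was lower with siEWSR1 at -0.20 ± 0.05 (adjusted p = 0.0132), although quantile normalization put it at 0.02, not called. Another 2 alternatives, among them scaling to genes of at least 300 bases, did not keep that call. With siFLI1 PSMB5 was at -0.09 ± 0.05 (adjusted p = 0.17). PSMB7, the trypsin-like subunit, had 147.5 and 146.3 FPKM with siEWSR1, 149.5 and 157.2 with siFLI1, and 162.9 and 158.6 with siNeg, and neither change passed the threshold as deposited (-0.13 and -0.07, adjusted p = 0.0609 and 0.275). All 4 siRNA libraries of PSMB7 lay below both siNeg libraries, and median-ratio scaling called it lower with siEWSR1 (adjusted p = 0.0308).

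Within a library, PSMB10 was 9.0% and 7.84% of PSMB7 with siEWSR1, 10.9% and 9.71% with siFLI1, and 5.36% and 5.55% with siNeg, which does not depend on a factor common to the library. The log2 ratio differed from siNeg by 0.60 for siEWSR1 and 0.88 for siFLI1, with no overlap between groups. PSMB8 was 27.3% and 28.8% of PSMB5 with siEWSR1, 31.8% and 31.9% with siFLI1, and 25.5% and 22.1% with siNeg, differences of 0.24 and 0.42. The siEWSR1 difference was 0.12 under quantile normalization and 0.14 without siNeg replicate 2. PSMB9 was 3.91% and 3.28% of PSMB6 with siEWSR1, 5.15% and 3.41% with siFLI1, and 3.54% and 3.24% with siNeg, so its groups overlapped. The two-sided exact permutation p was 0.333 for the PSMB10 and PSMB8 ratios with each siRNA, which is the smallest that 2 against 2 libraries allow, and 0.667 for the PSMB9 ratio. Even with siFLI1 every immunoproteasome subunit stayed below its constitutive partner in FPKM.

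**Figure D4:**
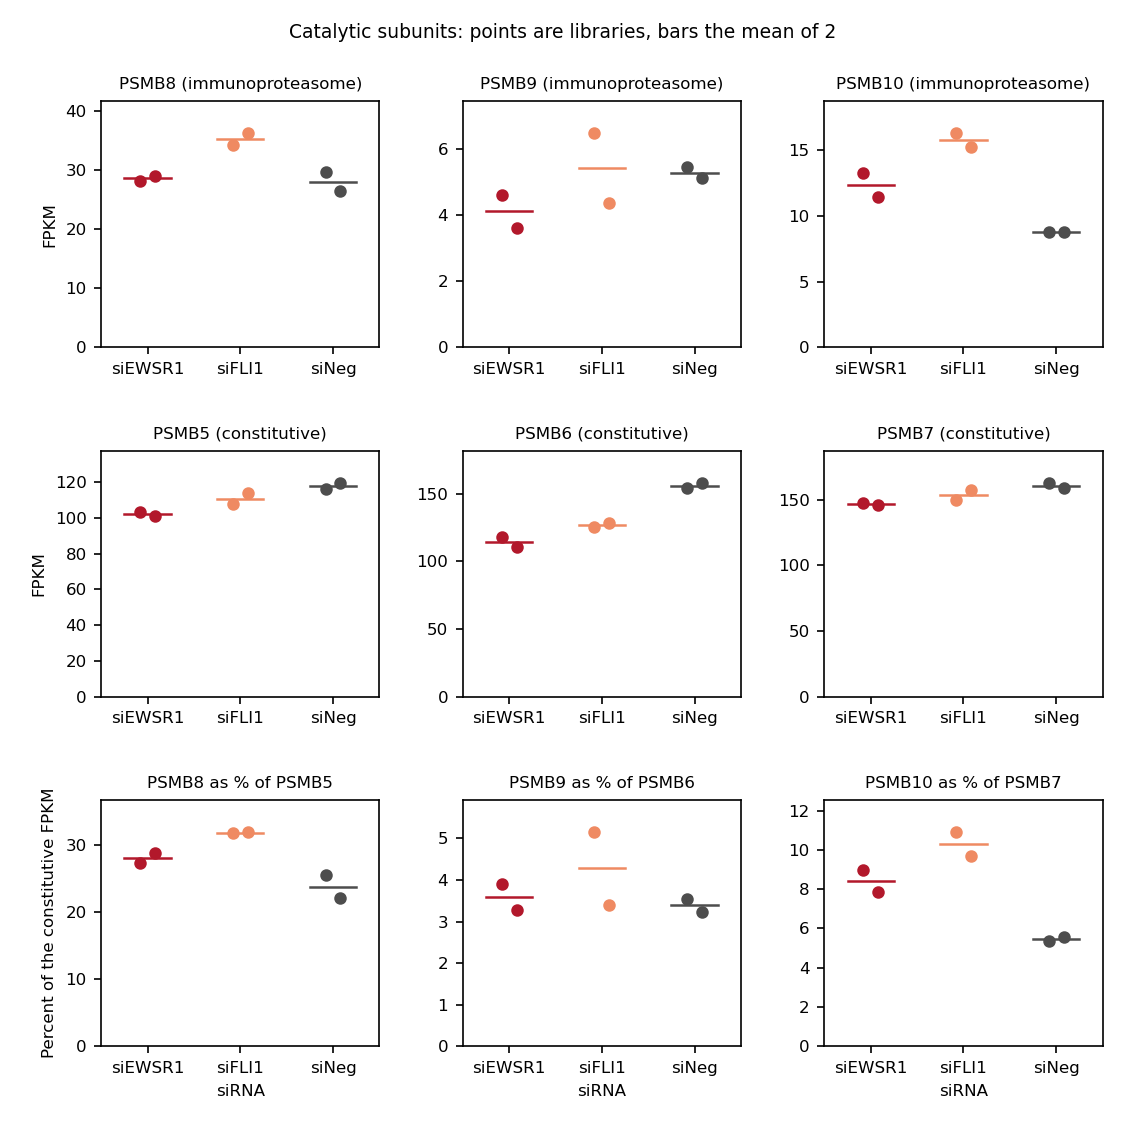
FPKM of each immunoproteasome subunit (top row), of the constitutive subunit it replaces (middle row) and the percentage of one in the other (bottom row) in siEWSR1, siFLI1 and siNeg libraries; points are libraries, bars the mean of 2, and each axis starts at 0. PSMB10 reaches 10.9% of PSMB7 with siFLI1 and 9.0% with siEWSR1, above both siNeg libraries, while the PSMB9 ratios overlap.

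The PSMB10 promoter (chr16:67936801-67937100, minus strand, GRCh38.p14) is shown since this gene rose most with siFLI1. It held no match to any of the 3 motifs, which says only that these letters are not in this window.
PSMB10: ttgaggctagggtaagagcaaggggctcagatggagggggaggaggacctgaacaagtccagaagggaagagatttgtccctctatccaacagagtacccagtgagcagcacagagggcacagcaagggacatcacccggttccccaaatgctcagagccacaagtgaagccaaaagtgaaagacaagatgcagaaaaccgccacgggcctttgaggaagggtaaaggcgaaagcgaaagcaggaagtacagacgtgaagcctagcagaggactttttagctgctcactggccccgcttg

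Set directly against siFLI1, siEWSR1 gave 3 lower proteasome genes of 47 (6.38%), beside 3.07% of all genes tested, and 0 higher, beside 0.79%. At an unadjusted p under 0.05 the counts were 9 lower and 0 higher. The 3 were PSMD14 (-0.42 ± 0.06, adjusted p = 0.0254), PSMA3 (-0.40 ± 0.06, adjusted p = 0.032) and PSME1 (-0.46 ± 0.06, adjusted p = 0.0182), the same genes that differed most from siNeg with siEWSR1. In each, both siEWSR1 libraries lay below both siFLI1 libraries. None of the 3 calls stood under every alternative: the count ranged from 0 to 6 when 1 library was left out, and was 0 without a filter on low values. PSMB10 and PSMB8 were at -0.34 ± 0.08 and -0.29 ± 0.07 between siEWSR1 and siFLI1 (adjusted p = 0.0718 and 0.073), with 95% intervals of -0.54 to -0.14 and -0.46 to -0.12 before adjustment. The median over the 47 was -0.08, beside -0.03 over all genes.

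**Figure D5:**
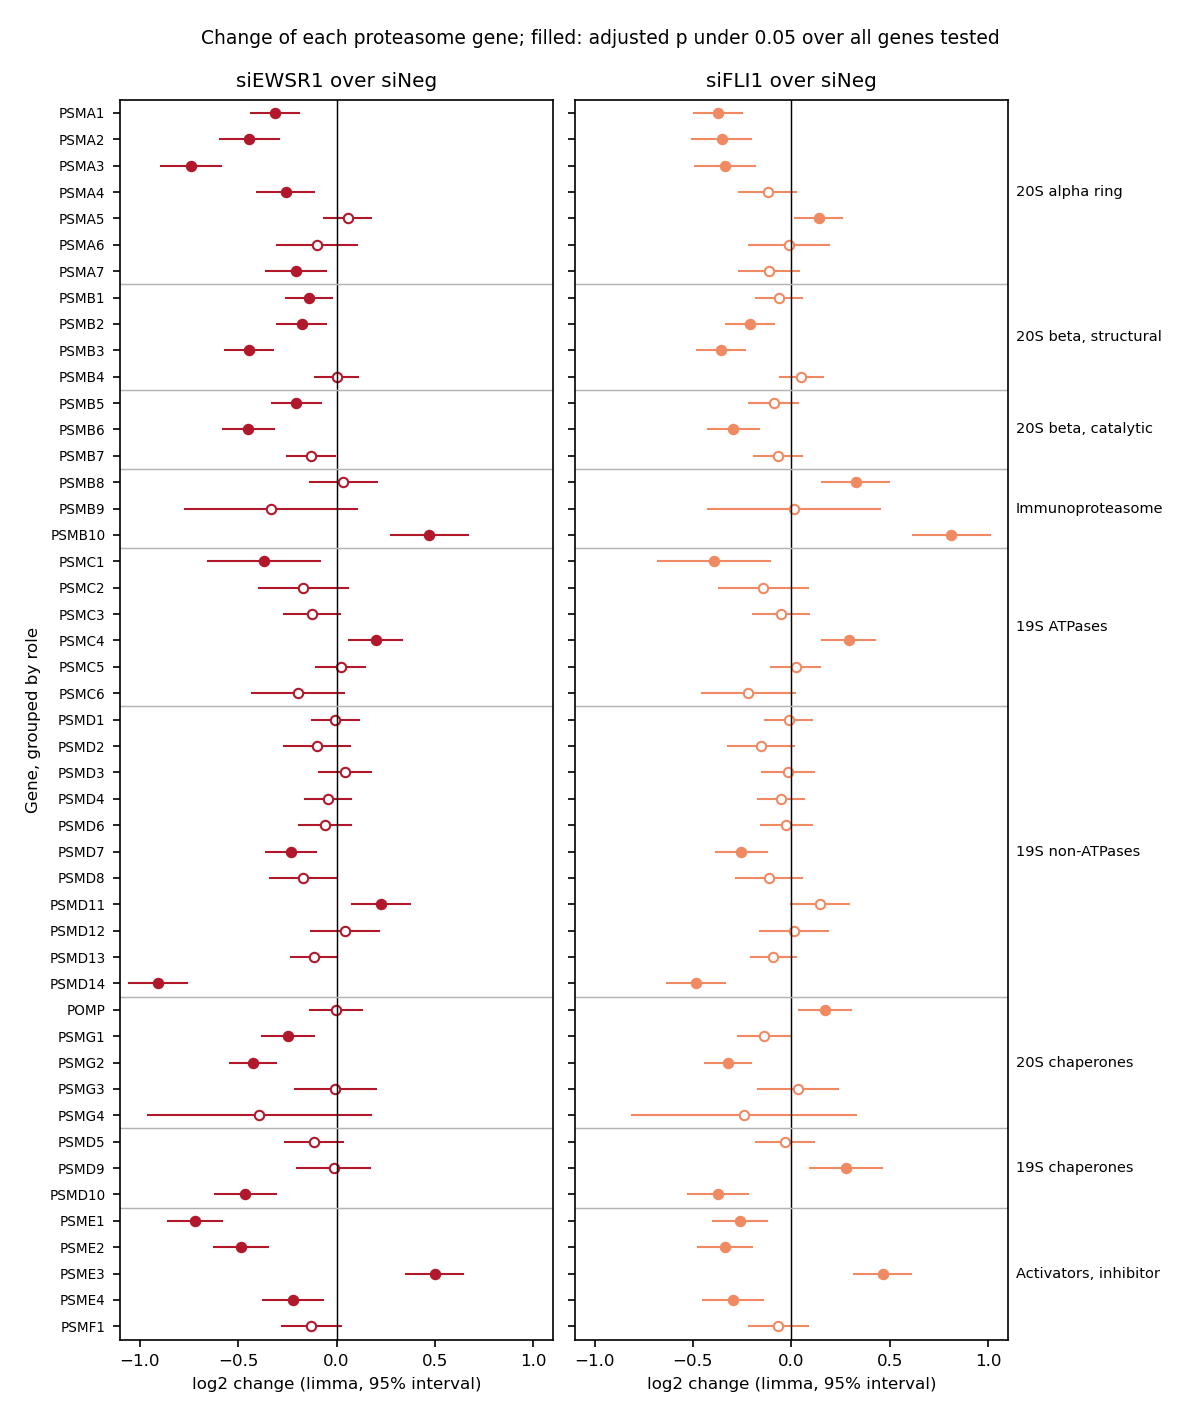
Log2 change of each of the 47 proteasome genes tested with its 95% interval from limma, for siEWSR1 (left) and siFLI1 (right) over siNeg, grouped by role; filled points passed an adjusted p under 0.05 over all genes tested. With siEWSR1 19 filled points lie below 0 and 4 above, which quantile normalization turns to 12 and 10, and with siFLI1 14 lie below and 7 above.

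The promoters differed by particle part in a feature that the choice of genes did not use. RefSeq promoters were matched by symbol for 43 of the 49 genes. The exact letters CCGGAAG were present in 9 of 16 promoters of 19S genes (56.2%), beside 10.3% of all 35116 promoters of that length. They were in 0 of 10 of the constitutive 20S genes, of which 14 were listed, and in 0 of 3 of the immunoproteasome genes. Near forms were not counted, and the PSMB3 promoter shown above holds GCGGAAGT on the other strand. A count of 0 therefore does not mean that 20S promoters lack sites for ETS-family factors. CCAAT was present in 8 of 16 promoters of 19S genes and 6 of 10 of 20S genes, beside 34.6% of all promoters, and TGANNNNGC in 8 of 16 and 7 of 10, beside 41.8% of all. Both strands were searched, and matches to different motifs overlapped each other in PSMA3 and PSMA5. The CCAAT matches of PSMD14, on opposite strands, also overlapped. The median GC content was 62% for proteasome promoters and 58.7% for all promoters.

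The same promoters were then set by the response of their genes. Among 13 matched promoters of genes lower with both siRNAs, 4 held CCGGAAG (30.8%), 7 CCAAT (53.8%) and 8 TGANNNNGC (61.5%). Among 17 of genes called with neither siRNA, 7 held CCGGAAG (41.2%), 7 CCAAT (41.2%) and 10 TGANNNNGC (58.8%). A match is a description of letters and not of a bound site.

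Genes that work with the particle but lie outside the name pattern were counted apart. Of 17 associated genes tested, 2 were higher and 6 lower with siEWSR1, and 2 were higher and 5 lower with siFLI1. The shares lower (35.3% and 29.4%) were near those of all genes tested (31.0% and 29.6%), and the shares higher (11.8% each) were below them (33.2% and 35.7%). Quantile normalization put 4 higher with siEWSR1 and scaling to genes of at least 300 bases put 4 higher with siFLI1. AKIRIN2, which takes proteasomes into the nucleus, had 17.0 and 15.8 FPKM with siEWSR1, 16.4 and 17.3 with siFLI1, and 28.4 and 26.3 with siNeg, at -0.73 ± 0.07 and -0.69 ± 0.07 (adjusted p = 0.000186 and 0.000204). Its 4 siRNA libraries lay close together and below both siNeg libraries. UCHL5, a deubiquitinase of the cap, was lower at -0.67 and -0.76. SHFM1, a small lid subunit also known as SEM1, was lower at -0.54 and -0.35. Higher with both were ADRM1, the cap's ubiquitin receptor that recruits UCHL5, at 0.50 and 0.58, and ZFAND5, an activator of the particle, at 0.75 and 1.01.

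Of 15 regulators of proteasome genes, 7 were higher and 4 lower with siEWSR1, and 6 were higher and 3 lower with siFLI1. The shares higher were 46.7% and 40%, beside 33.2% and 35.7% of all genes tested, and the shares lower 26.7% and 20%, beside 31.0% and 29.6%. NFE2L1, the transcription factor that raises subunit genes, had 66.4 and 73.4 FPKM with siEWSR1, 63.8 and 66.7 with siFLI1, and 49.3 and 44.0 with siNeg. All siRNA libraries lay above both siNeg libraries, at 0.58 ± 0.08 and 0.48 ± 0.08 (adjusted p = 0.000873 and 0.0019). NFYA and NFYB, subunits of the CCAAT-binding factor, moved in opposite directions, at 0.72 and 0.62 and at -0.52 and -0.35. KEAP1, which holds NFE2L2 in check, was higher at 0.53 and 0.63, and MAFK, a small MAF partner, was lower at -0.54 and -0.49. Of 5 ubiquitin and E1 genes, 1 was lower with each siRNA: UBA6, an E1 enzyme that activates ubiquitin, at -0.45 and -0.53. That is 20% lower with each, beside 31.0% and 29.6% of all genes tested. None was higher (0%), beside 33.2% and 35.7%. Quantile normalization put 2 of the 5 higher with each siRNA, and the share of all genes under it is not given here.

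The genes that handle proteasome products for MHC class I were mixed. Of 15, 4 were higher and 3 lower with siEWSR1, and 6 were higher and 2 lower with siFLI1, with 7 higher for siEWSR1 under scaling to genes of at least 300 bases. As deposited, the shares higher were 26.7% and 40%, not far from the 33.2% and 35.7% of all genes tested, and the shares lower were 20% and 13.3%, beside 31.0% and 29.6%. TAPBP, the tapasin that loads peptides, had 33.7 and 33.5 FPKM with siEWSR1, 44.6 and 43.1 with siFLI1, and 20.8 and 21.7 with siNeg, at 0.65 ± 0.05 and 1.03 ± 0.05 (adjusted p = 0.000106 and 1.65e-05). Like PSMB10, it was highest with siFLI1. TAPBPL, its relative, was at 0.51 and 1.04, and the chaperone CALR at 0.58 and 0.55. TAP2, a subunit of the peptide transporter, was lower at -0.64 and -0.60, B2M, the light chain, at -0.49 and -0.34, and TAP1, the neighbour of PSMB9, was not called at -0.07 and 0.14 (adjusted p = 0.358 and 0.105).

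Of 15 interferon and NF-kappaB regulators, which include known activators of the immunoproteasome genes, 9 were higher with each siRNA, while 5 were lower with siEWSR1 and 3 with siFLI1. That is 60.0% higher with each, beside 33.2% and 35.7% of all genes tested, and 33.3% and 20% lower, beside 31.0% and 29.6%. RELB, an NF-kappaB subunit, had 4.42 and 3.98 FPKM with siEWSR1, 5.57 and 4.68 with siFLI1, and 0.947 and 0.756 with siNeg, at 1.80 ± 0.12 and 2.06 ± 0.12 (adjusted p = 4.92e-05 and 2.41e-05). IRF1, which switches on PSMB9 with interferon, had 2.57 and 2.71 FPKM with siEWSR1, 4.11 and 3.59 with siFLI1, and 0.896 and 0.907 with siNeg, at 1.16 ± 0.09 and 1.63 ± 0.09 (adjusted p = 9.77e-05 and 2.27e-05). IRF9 was higher at 1.19 and 1.37, and the kinases JAK1 and JAK2 were lower at -0.86 and -0.87 and at -0.71 and -0.89.

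The levels of the 47 tested genes spanned 5.07 to 261.4 FPKM in the mean of the siNeg libraries, with a median of 40.8 FPKM beside 8.45 over all genes tested. PSMB4 and PSMB1 were highest at 261.4 and 238.6, then the alpha genes PSMA7 and PSMA1 at 170.3 and 165.0. PSMC1, PSMB9 and PSMC6 were lowest at 5.07, 5.29 and 8.04. Genes of 1 particle, whose products join in fixed proportions, were thus far from equal in FPKM. PSMA8, the alpha subunit of testis, and PSMB11, the beta subunit of thymus cortex, did not pass the filter, with at most 0.0015 and 0.016 FPKM in a library.

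Of the 6 symbols that are not proteasome genes, 5 were tested. PSMC3IP, a recombination factor named for binding PSMC3, had 8.36 and 7.11 FPKM with siEWSR1, 7.75 and 7.68 with siFLI1, and 13.4 and 13.9 with siNeg, and was lower at -0.79 and -0.78 (adjusted p = 0.000319 and 0.000289). PSMA3-AS1 had 13.1 and 14.4 FPKM with siEWSR1, 14.1 and 14.2 with siFLI1, and 9.67 and 9.45 with siNeg, and was higher at 0.50 and 0.54. PSMD5-AS1 was higher at 0.41 and 0.35, and PSMG3-AS1 at 0.51 and 0.98. PSMB8-AS1 was called with neither siRNA, and PSMD6-AS2, at 0.559 to 1.05 FPKM, did not pass the filter.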

How the data were processed

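RNA-seq of 6 TC32 libraries was used. The deposited values are gene-level FPKM made by the authors, each with the bounds of a 95% interval. The hg19 build, TopHat2 2.0.13, Cufflinks and Cuffdiff are listed, per the submitters' processing notes. The annotation, the strand setting and the handling of multi-mapping reads are not stated. Because FPKM depends on a library's total, abundant RNAs can shift all others, and folds on log2(FPKM + 0.5) understate the change of low genes.

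Symbols on several rows were summed, which concerned no proteasome gene. Genes with 1 FPKM or more in at least 2 of 6 libraries, 13043 in all, were fitted with limma 3.58.1 in R 4.3.3, with variances that follow the mean, in 1 fit over the 3 groups (3 residual and 3.39 prior degrees of freedom). P-values are two-sided, adjusted over all genes tested (Benjamini-Hochberg, threshold 0.05), and errors of log2 changes are standard errors. FPKM are not counts, so no count model was used. Ratios of subunits were compared by exact permutation over libraries. Tables were handled in Python 3.11.15 with pandas 2.3.3, and the fit was tested on simulated data.

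The genes and lists were chosen with earlier results of these data known. Some genes of the lists are not reported here, and the counts leave them out. Named genes are all proteasome genes, with values per library for the catalytic subunits, for the 2 highest and 2 lowest called changes per role and for genes called between siEWSR1 and siFLI1, and the highest and lowest called genes of each other list. Alternatives were the pseudocount, the filter, 3 other scalings, the variance model, a fit of the compared groups alone, the replicate number as a block, and leaving out each library.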

Additional observations from a re-analysis of the deposited data

How the results depend on the processing

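With siEWSR1, higher genes numbered 7 under scaling to genes of at least 300 bases and 10 under quantile normalization, lower genes 12 under quantile normalization, and the median was -0.032 and 0.015. With siFLI1 the median was -0.132 under median-ratio scaling, -0.051 under scaling to genes of at least 300 bases and -0.033 under quantile normalization. Between siEWSR1 and siFLI1 it was -0.043, -0.009 and 0.001 in that order, and lower genes numbered 0 without a filter and 1 in a fit of both groups alone. Quantile normalization gave ratio differences of 0.118 and 0.328 for PSMB8 over PSMB5, -0.220 and 0.037 for PSMB9 over PSMB6, and 0.343 and 0.673 for PSMB10 over PSMB7 (siEWSR1, then siFLI1, over siNeg). It also reversed PSMA7 (0.053), PSMB5 (0.015), PSMD1 (0.136), PSMD4 (0.141) and CD99 (0.001) with siEWSR1. The cause was not tested.

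Leaving out 1 library gave 2 to 4 higher and 13 to 21 lower genes with siEWSR1 (median -0.163 to -0.105), 4 to 7 and 12 to 16 with siFLI1 (median -0.104 to -0.066), and 0 to 6 lower between the siRNAs (median -0.105 to -0.045). The 2 came without siNeg replicate 1, the 4 of siFLI1 without siFLI1 replicate 2 or either siNeg replicate, and the 6 without siEWSR1 replicate 1. Ratio differences ranged from 0.136 to 0.340 and from 0.315 to 0.519 for PSMB8 over PSMB5, from 0.005 to 0.224 and from 0.035 to 0.580 for PSMB9 over PSMB6 (-0.466 to 0.079 between the siRNAs), and from 0.504 to 0.696 and from 0.799 to 0.960 for PSMB10 over PSMB7. With 1 library left in a group, it was assumed to vary like the other groups. Over all alternatives, 106 values of proteasome genes changed sign while called in neither fit, the largest of them 0.253 in size.

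Same-numbered libraries showed no strong shared shift: their deviations correlated at 0.0689 (siEWSR1 and siFLI1), -0.1374 (siEWSR1 and siNeg) and -0.053 (siFLI1 and siNeg). With so few libraries this cannot show whether the samples were paired. With a replicate block, 4 were higher and 19 lower with siEWSR1, 5 and 14 with siFLI1, and 0 and 3 between the siRNAs; the block also called PSMB9 lower with siEWSR1 (adjusted p = 0.0446). FPKM intervals limit the low genes: the half-width reached 18.8% for PSMB9 and 2.44% for PSMB4.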
